A study of Drosophila melanogaster with 34 samples.

Results

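Gypsy1, GYPSY2, GYPSY3, GYPSY4, GYPSY6A, GYPSY8 and GYPSY11 are numbered entries of the gypsy family among the transposon consensus sequences against which RNA, small RNA, chromatin accessibility and chromatin immunoprecipitation (ChIP) were measured in Drosophila melanogaster ovarian somatic cells (OSC). They were chosen by name and are 7 of the 129 entries in the 11 tables. The upper-case GYPSY2 and the mixed-case Gypsy2 are separate entries, and only the first is a member. A further 9 entries have a name that begins with gypsy and serve as a comparison, as does a list of 15 somatic transposons commonly named as piRNA targets in these cells, from which GYPSY and MDG1 are given as examples.

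The 34 samples were OSC, a cultured line of somatic follicle-type cells from the ovary, transfected with siRNA. Cells received siRNA against Piwi (Piwi-KD), the linker histone H1 (H1-KD), HP1a (HP1a-KD) or Mael (Mael-KD), and control cells received siRNA against EGFP, a reporter gene foreign to the fly. Poly(A)+ RNA was measured in Piwi-KD, H1-KD and control cells, and small RNA bound to Piwi in H1-KD and control cells. ATAC-seq, which reads open chromatin through transposase insertion, covered all 4 knockdowns and the control. ChIP for H3K9me3 and HP1a covered Piwi-KD, H1-KD and control cells, and ChIP for H1 covered Piwi-KD, HP1a-KD, Mael-KD and control cells. No other allele or agent is named for any group, all groups share the line and the transfection, and whether the samples came from separate transfections is not stated in the labels. The RNA of the targeted genes and of marker genes of the cell type was not analysed here, since the tables list transposon entries.

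Elements of the gypsy family are LTR retrotransposons, which copy themselves through an RNA intermediate, and some of them also carry an envelope gene of retroviral type. In the somatic cells of the fly ovary they are held down by piRNAs, many of them made from the flamenco locus, which guide the nuclear protein Piwi to nascent transposon transcripts. Mael acts in the same nuclear pathway, H3K9me3 and HP1a are the histone mark and the reader protein of heterochromatin, and H1 binds nucleosomes and linker DNA in chromatin in general. No role is stated here for single numbered families, and no consensus sequence of these families was analysed here.

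Each condition had 1 column per assay, apart from 3 control libraries of H1 ChIP and of input, so knockdown and control are compared without a spread between replicates unless a test is named. The values imply totals of 20625614 to 25544579 reads per RNA library, 6973985 to 7397276 per small RNA library and 3381967 to 5674137 per ATAC column. ChIP libraries had 2170354 to 4261323 reads for H1, 2599638 to 3334184 for HP1a and 2173189 to 2420008 for H3K9me3, and inputs had 1560307 to 4266312. Values are RPKM (reads scaled by consensus length and library depth), or RPM (reads scaled by depth alone) for small RNA. A log2 change is log2 of knockdown over control after a small pseudocount was added to both, so it understates changes of entries with few reads. Counting intervals are at 95%, refer to the ratio without pseudocount and cover counting error only. An entry is a consensus with no single chromosome position, and reads that match several related families can be split among them, so the values of related entries are uncertain. In bulk cells, a lower level in all cells and fewer cells with the element active cannot be told apart.

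Gypsy1 stood apart from the other 6 in control cells. Its DNA was the most abundant of all 129 entries in the control inputs, at 1755 ± 167 RPKM (SD, n = 3), and its RNA was second, at 2827 RPKM or 2.02% of all RNA reads (Wilson 95% interval 2.01% to 2.02%). The remaining members followed in input in the order GYPSY4 (107 ± 3.60), GYPSY2 (37.6 ± 5.34), GYPSY3 (20.5 ± 1.96), GYPSY6A (12.6 ± 4.77), GYPSY11 (5.62 ± 0.759) and GYPSY8 (1.74 ± 0.427 RPKM, all SD, n = 3). No neighbours in that order overlapped across the 3 control inputs, and the median of all entries was 37.6 RPKM. The consensus lengths recovered from the values ranged from 3976 bp (GYPSY11) to 7135 bp (Gypsy1), apart from GYPSY6A with 420 bp, so that the values of GYPSY6A rest on few ChIP and input reads throughout.

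RNA in control cells was low for most members. GYPSY6A had 12.7 RPKM and GYPSY4 4.72 RPKM, both above the median entry at 2.44 RPKM, and their Poisson intervals did not overlap. GYPSY11 (0.227 RPKM, 22 reads), GYPSY2 (0.183, 29 reads), GYPSY8 (0.115, 13 reads) and GYPSY3 (0.0623, 10 reads) ranked between 105 and 114 of 129. Each neighbouring pair of these 4 had overlapping Poisson intervals, while the interval of GYPSY3 (0.0299 to 0.115) lay below those of GYPSY11 (0.142 to 0.343) and GYPSY2 (0.123 to 0.263). GYPSY2 was itself the median entry in input and had RNA far below the median, while GYPSY6A had less input than the median and more RNA.

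Piwi-bound small RNA in control cells followed another order. Per kilobase of consensus, GYPSY4 led with 2115 RPM, rank 7 of the 127 entries with a known length, followed by GYPSY6A (914), GYPSY2 (636), Gypsy1 (409), GYPSY3 (245) and GYPSY11 (23.6 RPM per kb). GYPSY8 had 0.174 RPM per kb from 6 reads. The median entry had 13.8 RPM per kb, so 6 of the 7 members were above it and GYPSY8 was below.

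**Figure D1:**
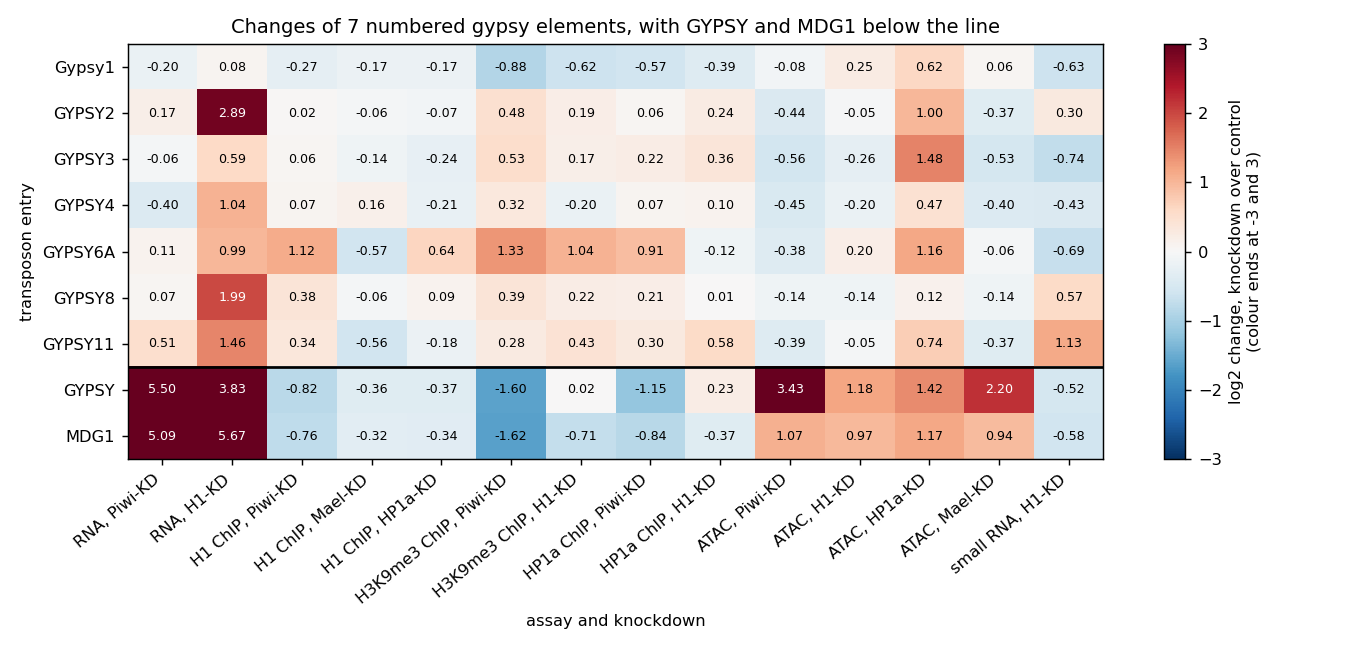
Each cell gives the log2 change of knockdown over control for 1 entry (rows) in 1 assay and knockdown (columns), with the colour ending at -3 and 3, and ChIP divided by input. GYPSY2 and GYPSY8 reach 2.89 and 1.99 in RNA of H1-KD (1.70 and 0.80 relative to the median entry), whereas in RNA of Piwi-KD the members lie between -0.40 and 0.51, and GYPSY and MDG1 reach 5.50 and 5.09.

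Whether Piwi holds down these elements was asked by comparing RNA of Piwi-KD with control. None of the 7 members was at least 2-fold higher or lower, while 24.0% of the 96 entries kept after a filter on low mean values were at least 2-fold higher and 3.12% lower. Of the 7, GYPSY3, GYPSY8 and GYPSY11 were below that filter, and GYPSY2 passed it only through its level in H1-KD. The median log2 change of the members was 0.07 and that of all kept entries 0.11, against 4.83 for the somatic target list. Of its 15 entries 14 passed the filter and 11 were at least 2-fold higher. Since that list gathers elements already reported as Piwi targets in such cells, its direction here is no independent evidence.

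Gypsy1 RNA stood at 2465 RPKM in Piwi-KD, against 2827 RPKM in control cells (log2 change -0.20). GYPSY4 stood at 3.44 RPKM in Piwi-KD, against 4.72 RPKM in control cells (-0.40), with a counting interval of -0.63 to -0.29. Both were thus lower in Piwi-KD by more than counting error, though by less than 2-fold. GYPSY11 had 0.561 RPKM in Piwi-KD (46 reads), against 0.227 RPKM in control cells (22 reads). Its log2 change was 0.51 with the pseudocount, and its ratio without it was 2.47, with a log2 interval of 0.54 to 2.11. It was the highest of the 7 changes in Piwi-KD. GYPSY6A (13.7 RPKM in Piwi-KD and 12.7 RPKM in control cells), GYPSY2 (0.277 and 0.183), GYPSY8 (0.146 and 0.115) and GYPSY3 (0.0369 and 0.0623) had intervals that held 0.

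In H1-KD, 4 of the 7 members were at least 2-fold higher than in the same control library, and all 7 changes were above 0. The background was broad: 58.3% of kept entries were at least 2-fold higher, none was 2-fold lower, and the median change was 1.19. Relative to that median, 3 members lay above and 4 below, GYPSY2 remained at least 2-fold higher and Gypsy1 was at least 2-fold lower, against 25.0% and 11.5% of kept entries. A share of 4 in 7 is close to the background share.

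GYPSY2 had the largest change of the members. It stood at 4.91 RPKM in H1-KD (814 reads), against 0.183 RPKM in control cells (29 reads), a ratio of 26.8 without pseudocount. Its log2 change was 2.89, or 1.70 relative to the median entry, and its log2 counting interval ran from 4.21 to 5.33. GYPSY8 stood at 2.096 RPKM in H1-KD (249 reads), against 0.115 RPKM in control cells (13 reads). Its log2 change was 1.99, or 0.80 relative to the median entry, with an interval of 3.39 to 5.12. Both thus had far more reads in H1-KD than in control cells. GYPSY11 stood at 1.59 RPKM in H1-KD (161 reads), against 0.227 RPKM in control cells (22 reads). Its log2 change was 1.46, or 0.26 relative to the median entry. GYPSY4 stood at 10.3 RPKM in H1-KD, against 4.72 RPKM in control cells, with a log2 change of 1.04 that became -0.15 relative to the median entry.

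The other members missed the 2-fold line in H1-KD. GYPSY6A was just outside it, at 25.8 RPKM in H1-KD and 12.7 RPKM in control cells (log2 change 0.99, or -0.20 relative to the median). GYPSY3 had 0.375 RPKM in H1-KD (63 reads) and 0.0623 RPKM in control cells (10 reads). Its interval without pseudocount was 1.62 to 3.72, yet its log2 change was 0.59 (-0.60 relative to the median), since its level is below the pseudocount of 0.553 RPKM. Gypsy1 stood at 2997 RPKM in H1-KD, against 2827 RPKM in control cells, with a log2 change of 0.08 and -1.11 relative to the median entry. The most abundant member thus had 1.06 times its control RNA in H1-KD, while the median entry changed by 1.19 on the log2 scale.

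**Figure D2:**
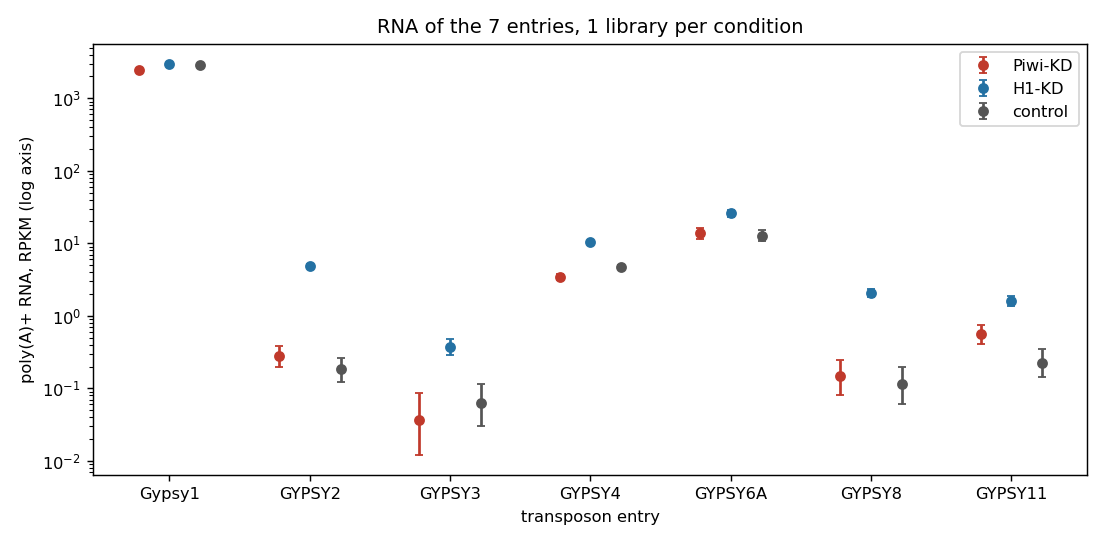
Points give poly(A)+ RNA in RPKM on a log axis for each entry in Piwi-KD, H1-KD and control, with Poisson 95% bars for counting error. GYPSY2, GYPSY8 and GYPSY11 stand at 4.91, 2.096 and 1.59 RPKM in H1-KD and at or below 0.561 RPKM in the other 2 libraries, while the 3 values of Gypsy1 lie between 2465 and 2997 RPKM.

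H1-KD and Piwi-KD share the control library, so they were also set against each other directly. All 7 members were above 0 for H1-KD over Piwi-KD, and GYPSY2 (log2 difference 2.72), GYPSY8 (1.92) and GYPSY4 (1.44) were at least 2-fold higher, as were 37.5% of kept entries. Relative to a median difference of 0.73, GYPSY2 (1.99) and GYPSY8 (1.19) were still at least 2-fold higher in H1-KD than in Piwi-KD, while Gypsy1 (-0.45) and GYPSY3 (-0.08) were below the median. For GYPSY and MDG1 the RNA levels were 524 and 1742 RPKM in H1-KD, against 1662 and 1164 RPKM in Piwi-KD.

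H3K9me3 over input was measured to ask where the heterochromatin mark depends on Piwi or H1. In control cells the ratio was 4.41 at GYPSY3, 3.45 at Gypsy1, 3.37 at GYPSY2, 3.08 at GYPSY8, 3.04 at GYPSY4, 2.06 at GYPSY11 and 0.607 at GYPSY6A, with a median of 2.72 over kept entries. Thus 5 of the 7 members were above the median. The ratio of GYPSY6A was below 1, but it came from 11 ChIP and 29 input reads. Its control input was 17.8 RPKM in sample 1, against 8.51 in sample 2 and 11.5 in sample 3.

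In Piwi-KD, 1 member was at least 1.5-fold lower (Gypsy1) and 1 at least 1.5-fold higher (GYPSY6A), against 13.5% lower and 13.5% higher among kept entries, whose median change was 0.32. The ratio at Gypsy1 was 1.87 in Piwi-KD, against 3.45 in control cells, a log2 change of -0.88 with a counting interval of -0.90 to -0.86 and -1.19 relative to the median entry. GYPSY3 had a ratio of 6.65 in Piwi-KD and 4.41 in control cells (log2 change 0.53), GYPSY2 4.81 and 3.37 (0.48), and GYPSY4 3.83 and 3.04 (0.32). These 3 had intervals above 0, and relative to the median entry they stood at 0.21, 0.16 and 0.01. H3K9me3 at Gypsy1 was thus lower, and at these 3 close to the median change of all entries. GYPSY8 had a ratio of 7.001 in Piwi-KD and 3.08 in control cells (0.39), from 25 and 40 input reads, and GYPSY11 2.95 and 2.06 (0.28). The change of 1.33 at GYPSY6A came from 19 ChIP and 13 input reads in Piwi-KD, against 11 ChIP and 29 input reads in control cells.

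In H1-KD the same 2 members passed 1.5-fold, against 6.25% lower and 2.08% higher among kept entries. The ratio at Gypsy1 was 2.25 in H1-KD, against 3.45 in control cells (log2 change -0.62). GYPSY11 had a ratio of 3.61 in H1-KD and 2.06 in control cells, with a log2 change of 0.43 and an interval of 0.21 to 1.40. It had 54 input reads in H1-KD and 94 in control cells, and its change was 0.18 without division by input. GYPSY4 had 2.63 and 3.04 (-0.20), GYPSY2 3.88 and 3.37 (0.19), GYPSY3 5.04 and 4.41 (0.17), and GYPSY8 4.47 and 3.08 (0.22). GYPSY2 and GYPSY8, the members with the largest RNA ratios of H1-KD over control, thus had H3K9me3 ratios above the control, the interval of GYPSY8 held 0, and Gypsy1 had a lower one. GYPSY6A had a change of 1.04 from 22 ChIP and 15 input reads in H1-KD, set against the same 11 and 29 control reads.

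HP1a over input followed a partly similar order, though Gypsy1 was above the median entry for H3K9me3 and below it for HP1a. In control cells it was 2.50 at GYPSY3, 2.45 at GYPSY8, 2.39 at GYPSY2, 1.94 at GYPSY4, 1.69 at Gypsy1, 1.29 at GYPSY11 and 0.943 at GYPSY6A, with a median of 1.81. In Piwi-KD 6.25% of kept entries were at least 1.5-fold lower and 2.08% higher, and among the members GYPSY6A alone passed (2.27 in Piwi-KD, 0.943 in control cells, log2 change 0.91). Its interval of -0.04 to 2.58 held 0, and its change was 0.49 when the control was divided by the mean of the 3 control inputs, an alternative chosen after seeing the data. Gypsy1 was just short of 1.5-fold, at 1.14 in Piwi-KD and 1.69 in control cells (-0.57, interval -0.60 to -0.55), and past it relative to the median entry (-0.62). GYPSY2 (0.06) and GYPSY4 (0.07) lay close to the median change of 0.05, with intervals that held 0. GYPSY3 was at 0.22, or 0.17 relative to the median entry, with an interval of 0.04 to 0.46. GYPSY11 had a ratio of 1.89 in Piwi-KD and 1.29 in control cells, and GYPSY8 4.02 and 2.45, both with intervals that held 0.

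No member passed 1.5-fold for HP1a in H1-KD, where 0% of kept entries were higher and 2.08% lower and the median was 0.12. Gypsy1 had the lowest change of the members, at 1.29 in H1-KD and 1.69 in control cells (log2 change -0.39). GYPSY11 had the highest, at 2.71 in H1-KD and 1.29 in control cells (0.58, interval 0.46 to 1.69), just short of 1.5-fold. Its ratios rest on the same 54 and 94 input reads as those of H3K9me3, and its change was 0.34 without division by input. GYPSY3 (3.30 in H1-KD, 2.50 in control cells, 0.36) and GYPSY2 (2.85 and 2.39, 0.24) had intervals above 0. The H3K9me3 and HP1a comparisons share their control input and, within each knockdown, the knockdown input, as does H1 ChIP in Piwi-KD. Parallel changes across the ChIP targets of a knockdown are thus not independent. Each mark's 2 comparisons share 1 control ChIP library. Relative to the median entry, GYPSY11 was at -0.04 for H3K9me3 in Piwi-KD and GYPSY8 at -0.11 for HP1a in H1-KD. With the control divided by the mean of the 3 control inputs, GYPSY2 was at -0.13 for HP1a in Piwi-KD and -0.01 for H3K9me3 in H1-KD, and GYPSY8 at -0.09 for HP1a in H1-KD.

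**Figure D3:**
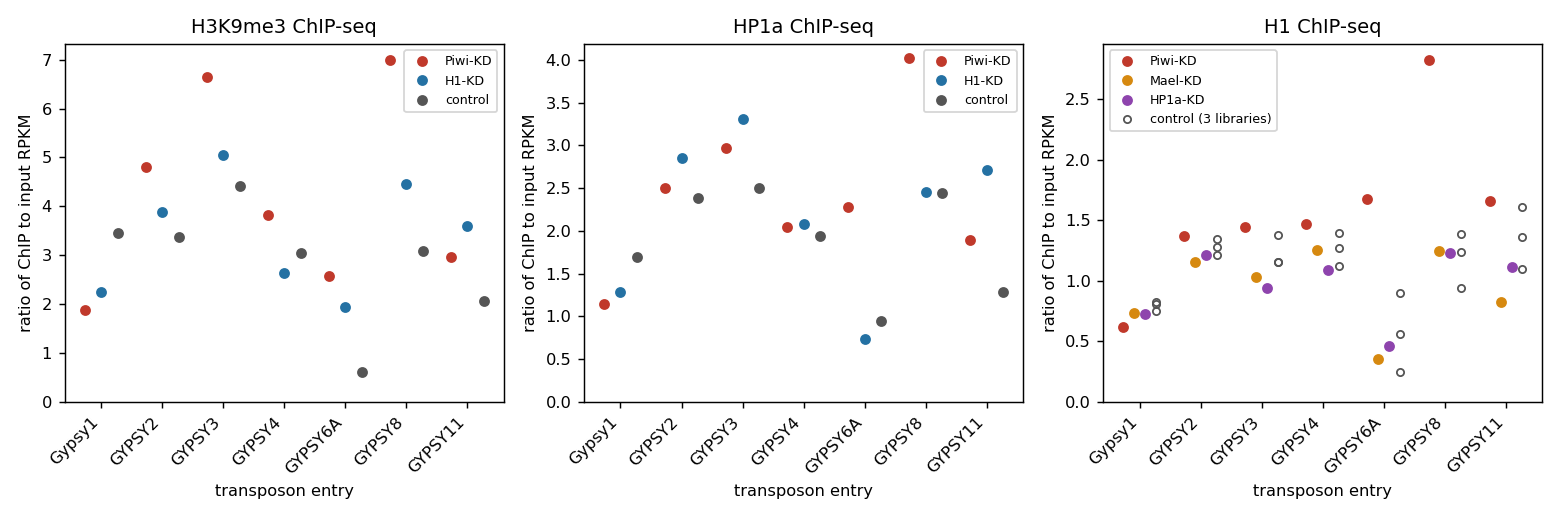
Points give the ratio of ChIP to input RPKM for each entry, for H3K9me3 (left), HP1a (middle) and H1 (right), with 3 open circles for the 3 control libraries of H1 ChIP. Gypsy1 has H3K9me3 ratios of 1.87 in Piwi-KD and 2.25 in H1-KD, both under the 3.45 of the control, and its 3 control ratios for H1 lie between 0.752 and 0.824.

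H1 occupancy in control cells was lower at Gypsy1 than at most entries. The ratio of H1 ChIP to input was 0.795 ± 0.0386 at Gypsy1, against 1.36 ± 0.257 at GYPSY11, 1.28 ± 0.0688 at GYPSY2, 1.26 ± 0.135 at GYPSY4, 1.23 ± 0.129 at GYPSY3, 1.19 ± 0.229 at GYPSY8 and 0.568 ± 0.330 at GYPSY6A (SD, n = 3 each). The median entry had 1.21 and the lower quartile of kept entries was 1.09. All 3 control libraries had less H1 at Gypsy1 than any control library had at the 5 members from GYPSY11 to GYPSY8, which overlapped with each other. GYPSY6A ranged from 0.243 to 0.903 and overlapped with Gypsy1.

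Where H1 depends on Piwi, HP1a or Mael was asked with H1 ChIP, each knockdown being set against the equally numbered control. In Piwi-KD, GYPSY6A alone was at least 1.5-fold higher (log2 change 1.12), with 3.12% of kept entries higher and 3.12% lower. It had 21 ChIP and 13 input reads in Piwi-KD, against 17 and 29 in control cells, so the ChIP counts differed less than the input counts. Gypsy1 had a ratio of 0.621 in Piwi-KD, against 0.752 in the control of the same number (-0.27). That value was below all 3 control libraries, which ranged from 0.752 to 0.824, as were the ratios of Gypsy1 in HP1a-KD (0.722, -0.17) and Mael-KD (0.732, -0.17) against their own controls (0.810 and 0.824). Relative to the median entry, Gypsy1 was at -0.29 in Piwi-KD but only at -0.05 in HP1a-KD and -0.12 in Mael-KD. GYPSY8 had 2.83 in Piwi-KD and 1.24 in control cells (0.38), GYPSY11 1.66 and 1.10 (0.34), and GYPSY4, GYPSY3 and GYPSY2 differed by 0.02 to 0.07.

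In HP1a-KD, GYPSY6A again passed 1.5-fold (0.64), from 4 ChIP reads in HP1a-KD and 5 in control cells, with an interval that held 0, while 0% of kept entries were higher and 4.17% lower. GYPSY3 had a ratio of 0.943 in HP1a-KD and 1.16 in control cells (-0.24), and GYPSY4 1.09 and 1.27 (-0.21), against a median change of -0.11. In Mael-KD no member passed, with 0% of kept entries higher and 2.08% lower. GYPSY11 had a ratio of 0.821 in Mael-KD, against 1.61 in control cells (-0.56, interval -1.79 to -0.15), and lay under all 3 control libraries. It had 52 ChIP and 45 input reads in Mael-KD, against 66 and 37 in control cells. Without division by input its change was -0.22. GYPSY4 had 1.26 in Mael-KD and 1.12 in control cells (0.16).

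A limma model set each lone knockdown library against the 3 controls and assumed that it varies like them. Each entry had 2 residual degrees of freedom, and the standard error of 0.18 was pooled over 94 entries. The p-values of this fit thus rest on the pooled spread and not on 2 degrees of freedom. With Benjamini-Hochberg adjustment limma called none of the 5 members tested in Piwi-KD, HP1a-KD or Mael-KD (0, 0 and 1 at an unadjusted p under 0.05), against 4.26%, 4.26% and 1.06% of entries called. Gypsy1 in Piwi-KD had a limma log2 change of -0.35 (SE 0.18, adjusted p = 0.581). GYPSY11 in Mael-KD had -0.47 (SE 0.18), and -0.26 without division by input. Without the control library of sample 1, limma called 2 members in Piwi-KD, Gypsy1 (-0.39, adjusted p = 0.0389) and GYPSY3 (0.33, adjusted p = 0.0432), together with 23 of 94 entries, whereas without control 2 or 3 it called 0 members. The standard errors of Gypsy1 and GYPSY3 were 0.05 each without control 1, against 0.18 with all 3 controls. The change of Gypsy1 itself differed little (-0.39 and -0.35). Control 1 has the sample number of Piwi-KD, so without it the knockdown and the sample number cannot be told apart. Against control 1 itself, GYPSY3 was at 0.06 in Piwi-KD (interval -0.15 to 0.29).

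Accessibility in control cells, as ATAC RPKM over the mean control input, was 16.2 at GYPSY6A, 4.07 at GYPSY8, 2.75 at Gypsy1, 1.79 at GYPSY11, 1.13 at GYPSY2, 1.03 at GYPSY3 and 0.857 at GYPSY4, with a median of 1.08. The ATAC and input tables were normalized separately, so these levels are on an arbitrary scale and can only be compared between entries. The 2 highest rest on few reads in the 3 control inputs: 29, 7 and 20 at GYPSY6A, and 40, 13 and 30 at GYPSY8. Gypsy1 took 3.45% of the control ATAC reads.

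In HP1a-KD most members were more accessible than in control cells. At least 1.5-fold more ATAC signal was found at 5 of the 7, and all 7 were above 0, while 31.2% of kept entries were at least 1.5-fold higher and the median change was 0.21. Relative to that median, 3 members were at least 1.5-fold higher, against 22.9% of kept entries, and GYPSY8 lay below it (-0.09). GYPSY8 and GYPSY11 were under the filter on low values.

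GYPSY3 had the largest change, with 69.2 RPKM in HP1a-KD, against 21.0 RPKM in control cells (log2 change 1.48, interval 1.57 to 1.86 without pseudocount). Its values were 12.4 RPKM in Piwi-KD, 16.6 in H1-KD and 12.7 in Mael-KD, each below the control. As deposited, GYPSY3 was thus higher than control in HP1a-KD and lower in the other knockdowns. The median kept entry was itself at -0.32 in Piwi-KD, -0.08 in H1-KD and -0.23 in Mael-KD. Relative to the median of each knockdown, GYPSY3 was at -0.24, -0.18 and -0.30 there, short of 1.5-fold, and at 1.27 in HP1a-KD. GYPSY6A had 466 RPKM in HP1a-KD, against 205 RPKM in control cells (1.16), and GYPSY2 91.4 RPKM, against 42.6 RPKM (1.005). GYPSY11 had 20.7 RPKM in HP1a-KD and 10.04 RPKM in control cells (0.74), from 409 and 135 reads. Gypsy1 had 7405 RPKM in HP1a-KD and 4832 RPKM in control cells (0.62), just past 1.5-fold. GYPSY4 was just outside, at 129 and 91.7 RPKM (0.47), and GYPSY8 had 8.21 and 7.06 RPKM (0.12), with an interval that held 0.

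In Piwi-KD no member passed 1.5-fold in ATAC, against 11.5% of kept entries higher and 2.08% lower. All 7 members were below their control as deposited, but the median entry was at -0.32, and relative to it Gypsy1 (0.24) and GYPSY8 (0.18) were above and the other 5 below. The lowest were GYPSY3 (-0.56), GYPSY4 (-0.45), with 65.6 RPKM in Piwi-KD and 91.7 RPKM in control cells, and GYPSY2 (-0.44), with 29.9 and 42.6 RPKM. For comparison, GYPSY itself had 6848 RPKM in Piwi-KD and 630 RPKM in control cells.

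Mael-KD gave nearly the same ATAC values as Piwi-KD for most members, and no member passed 1.5-fold against control (8.33% of kept entries higher, 2.08% lower). For Mael-KD over Piwi-KD directly, 0 of 7 members passed, against 1.04% of kept entries higher and 7.29% lower, and the log2 differences ran from -0.00122 at GYPSY8 to 0.32 at GYPSY6A. GYPSY6A had 196 RPKM in Mael-KD and 156 RPKM in Piwi-KD. In H1-KD no member passed against control either, with 12.5% of kept entries higher and 1.04% lower. Gypsy1 had 5757 RPKM in H1-KD and 4832 RPKM in control cells (0.25). GYPSY2, whose RNA differed most in H1-KD, had 41.1 RPKM in H1-KD and 42.6 RPKM in control cells (-0.05, interval -0.17 to 0.07), and GYPSY8 5.87 and 7.06 RPKM (-0.14).

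Set directly against the other knockdowns, HP1a-KD had at least 1.5-fold more ATAC signal than Piwi-KD at 6 of 7 members (35.4% of kept entries) and than H1-KD at 5 of 7 (25.0%). GYPSY3 led both, with log2 differences of 2.04 over Piwi-KD and 1.74 over H1-KD, or 1.60 and 1.43 relative to the median entry, and was the entry with the largest difference of all kept entries in both. Relative to the median, 4 and 3 members were past 1.5-fold, against 15.6% and 13.5% of kept entries.

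**Figure D4:**
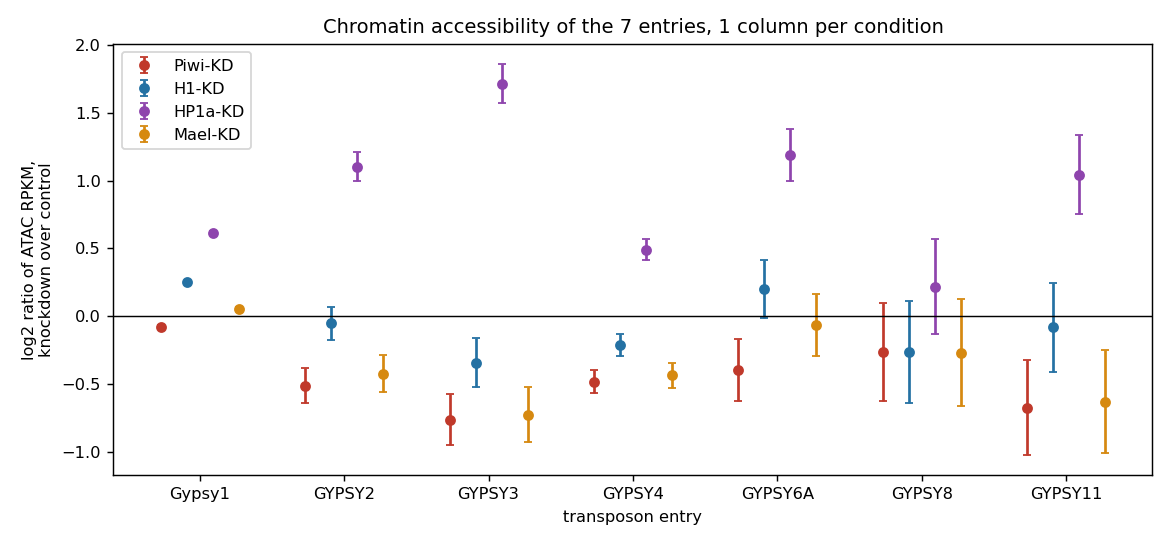
Points give the log2 ratio of ATAC RPKM of each knockdown over the shared control, without pseudocount, with 95% bars for counting error and 1 column per condition. The HP1a-KD point is the highest of the 4 for every entry, from 0.22 at GYPSY8 to 1.72 at GYPSY3. With the pseudocount, the median kept entry changed by 0.21 in HP1a-KD and -0.32 in Piwi-KD. On that scale GYPSY8 was at 0.12 and GYPSY3 at 1.48 in HP1a-KD.

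Piwi-bound small RNA was compared between H1-KD and control. GYPSY11 was the 1 member at least 2-fold higher, with 33.3% of kept entries higher, 0% lower and a median change of 0.27. It had 215 RPM in H1-KD (1498 reads), against 93.7 RPM in control cells (693 reads), a log2 change of 1.13 that was 0.86 relative to the median. GYPSY8 had 5.16 RPM in H1-KD (36 reads) and 0.811 RPM in control cells (6 reads), with an interval of 1.41 to 4.21 and a log2 change of 0.57. These members, with the least small RNA in control cells, were higher in H1-KD.

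Members with more small RNA were mostly lower in H1-KD. GYPSY4 had 10331 RPM in H1-KD, against 13907 RPM in control cells (-0.43), and Gypsy1 had 1882 RPM, against 2915 RPM (-0.63). GYPSY3 had 960 RPM in H1-KD and 1611 RPM in control cells (-0.74), which was just past 2-fold lower relative to the median entry (-1.01), as in 3.12% of kept entries. GYPSY6A had 234 and 384 RPM (-0.69). GYPSY2 was the exception among them, with 5088 RPM in H1-KD and 4125 RPM in control cells (0.30), close to the median entry. The members changed by a median of -0.43, against -0.50 for the somatic target list, in which no member was 2-fold higher or lower.

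**Figure D5:**
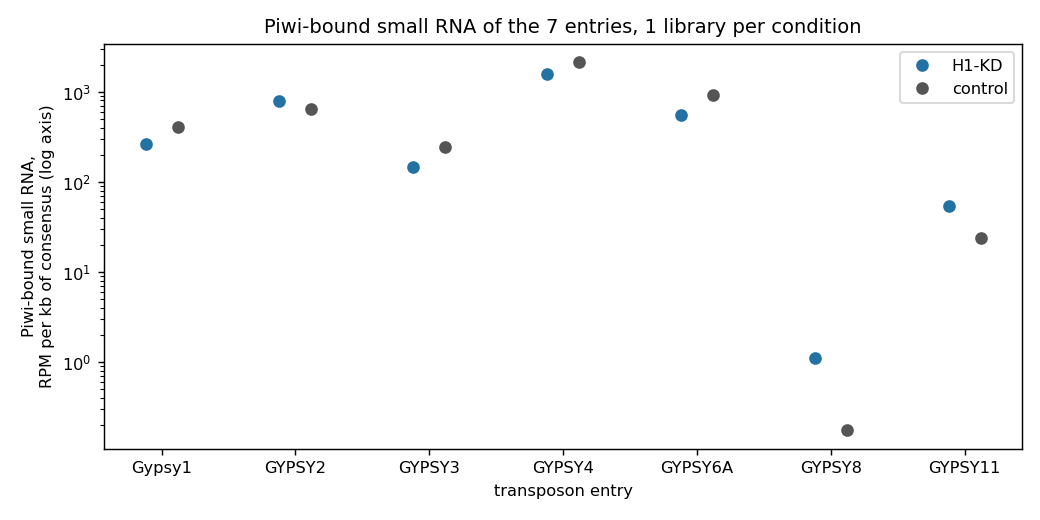
Points give Piwi-bound small RNA in RPM per kilobase of consensus on a log axis for each entry in H1-KD and control, 1 library each. GYPSY4 is highest in both libraries, GYPSY8 lowest, and GYPSY2, GYPSY8 and GYPSY11 are the entries with H1-KD above control.

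Over the 14 comparisons with control, the members differed among themselves. GYPSY3 and GYPSY4 had the shortest Euclidean distance between their log2 changes (1.36), and Gypsy1 and GYPSY6A the longest (3.75). The nearest of 65 other entries, each kept by the filter in every table, were BLOOD (distance 1.18) and GYPSY6 (1.53) for Gypsy1, where the median distance was 3.46. For GYPSY2 they were ACCORD (0.795) and MAX (1.39), for GYPSY3 GYPSY6 (1.40) and IDEFIX (1.76), and for GYPSY4 ROVER (0.742) and COPIA2 (0.916). GYPSY8 was nearest to G4 (0.832) and DMRT1B (0.864), GYPSY11 to S (1.01) and R1 (1.41), and GYPSY6A to S (2.58) and DIVER2 (2.65). These distances describe 14 changes that share control columns, and for low entries the pseudocount shortens them.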

How the data were processed

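RNA, Piwi-bound small RNA, ATAC, ChIP and input were measured in 34 samples of OSC, grown at 26 °C per the labels. The authors deposited 11 tables of 129 transposon entries in 29 columns. Those of RNA, ATAC, ChIP and input hold deposited RPKM values. The small RNA table, as deposited, holds RPM. Both units were deduced, since no source used here names them: whole-number lengths and read totals gave whole reads, within 0.05 reads, for 3579 of 3579 nonzero values, with lengths for 127 entries (186 to 14477 bp). Per the submitters' processing notes, the tools were Bowtie 1.0.1 for small RNA, input and ChIP, MACS2 for ATAC, and TopHat2 2.0.7, Bowtie2 2.0.6 and Cufflinks 2.1.1 for RNA, all with cutadapt and build dm3. No role or order is stated there. Not given in the sources used here are the counting of reads shared by related families, any shift of ATAC reads, and whether an ATAC column pools the 2 samples of its condition.

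Log2 changes were log2((knockdown + p)/(control + p)), with p at 0.1 of a table's median value above 0. That gave 8.10 RPM for small RNA, 0.553 RPKM for RNA, 4.45 to 4.63 RPKM for inputs, 5.80 RPKM for ATAC and 4.51 to 13.2 RPKM for ChIP. For ChIP, each ChIP and input value first had the p of its own table added. ChIP was then divided by its input (same knockdown, same sample number), and knockdown by control. The 25% of entries with the lowest mean (33) were left out of the background, and 96 kept. The mean took in the knockdown columns, so an entry low in the control can be kept through a high knockdown value. The threshold was 1.5-fold for ATAC and ChIP, and 2-fold for both kinds of RNA. Counting intervals at 95% used the exact Clopper-Pearson method for the ratio of 2 libraries, exact Poisson for levels, and log-scale normal approximations for ChIP over input. They cover counting error only, as PCR reads without molecular identifiers are no independent molecules. Log2 H1 ChIP over input was modelled with limma 3.58.1 (R 4.3.3), whose p-values measure only the spread between the 3 control libraries, which may be technical. The scripts were tested on simulated data.

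Each member was described whatever its value. For each member the 2 nearest other entries over all log2 changes are named. The members, lists and rules were chosen with earlier results of these data known. Alternatives were other pseudocounts, values relative to the median entry, members passing the filter only, no or other input, other control libraries and another ATAC threshold.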

Additional observations from a re-analysis of the deposited data

How the results depend on the processing

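Across the 14 comparisons with control, 98 changes of members were computed, of which 17 passed their threshold. Under 420 alternative values 23 passes were lost, 20 were gained, and 2 values changed sign among changes that had passed. Sign changes among changes that had not passed were not counted, though some occurred. Gypsy1 in ATAC of Piwi-KD, for example, was at -0.08, and at 0.24 relative to the median entry. Of 96 alternative counts 67 stayed within 1.5 times the reported one, which does not show that the same members passed. The 2 values that reversed after a pass were GYPSY4 RNA in H1-KD relative to the median entry (-0.15) and GYPSY6A H1 ChIP in HP1a-KD without input (-0.10). The cause of the second was not tested. Depth limits members with few reads, such as GYPSY6A, GYPSY8 and GYPSY11 in ChIP and input, GYPSY3, GYPSY8 and GYPSY11 in RNA, and GYPSY8 in small RNA.

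The count of members past the threshold for RNA in H1-KD was 1 with a pseudocount 5 times larger, 2 relative to the median entry, 2 among members passing the filter (one of them GYPSY2, which passes through its H1-KD level alone) and 6 with a pseudocount 5 times smaller (GYPSY3 and GYPSY6A added), against 4 as reported. For ATAC in HP1a-KD it was 3 relative to the median entry and 3 at a 2-fold threshold, against 5. A pseudocount 5 times larger gave 0 for H1 ChIP in Piwi-KD and in HP1a-KD, 1 for H3K9me3 in Piwi-KD and in H1-KD, 0 for HP1a in Piwi-KD and 0 for small RNA. A pseudocount 5 times smaller gave 2 for H1 ChIP in Piwi-KD and in Mael-KD, 1 for HP1a in H1-KD, 2 for ATAC in Piwi-KD, 1 for ATAC in Mael-KD and 2 for small RNA. Without input the count was 0 for H1 ChIP in Piwi-KD and in HP1a-KD, 1 for H1 ChIP in Mael-KD, and 1 for H3K9me3 in Piwi-KD and in H1-KD. For H1 ChIP in HP1a-KD it was also 0 among members passing the filter and 0 against the mean of the 3 controls. HP1a in Piwi-KD gave 2 relative to the median entry, and ATAC divided by input gave 1 in H1-KD and 1 in Mael-KD. Apart from the filter, which counts fewer members, the cause was not tested.

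limma called 0 members in Piwi-KD as reported, 1 with no filter (GYPSY6A, log2 change 1.19, adjusted p = 2.22e-06), and 0 to 2 when each control library was left out in turn. The GYPSY6A call rests on 1 knockdown library and a standard error of 0.20 shared by all entries, while its own 3 controls were at -0.50, -0.09 and -1.11. HP1a in Piwi-KD again had 1 member past 1.5-fold without input, but it was Gypsy1 (-0.59) and not GYPSY6A (0.08), as it was with the control over the mean of the 3 control inputs, chosen after seeing the data (-0.72 and 0.49). Small RNA relative to the median entry also kept 1, but it was GYPSY3 (-1.01) and not GYPSY11 (0.86). No paired analysis was possible because each knockdown has 1 H1 ChIP library, so that it shares a single sample number with the controls, and the ATAC columns carry no replicate number.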

Other observations

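The 7 members were set beside the 9 other entries whose names begin with gypsy, without a test of the difference. In RNA of Piwi-KD 0 of the 7 members were at least 2-fold higher with a median log2 change of 0.07, against 3 of the 9 with a median of 0.71 and 24.0% of kept entries. In ATAC of Piwi-KD 0 of the 7 were at least 1.5-fold higher, against 3 of the 9 and 11.5% of kept entries. In RNA of H1-KD 4 of the 7 passed with a median of 1.04, against 5 of the 9 with a median of 1.01 and 58.3% of kept entries. In ATAC of HP1a-KD 5 of the 7 passed with a median of 0.74, against 5 of the 9 with a median of 0.59 and 31.2% of kept entries. In small RNA of H1-KD 1 of the 7 was at least 2-fold higher, against 3 of the 9 and 33.3% of kept entries. GYPSY5, which belongs to the 9, is also on the somatic target list, as is GYPSY.

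Input values of the members in knockdowns were close to those of the control inputs where reads were many. Gypsy1 had 1905 RPKM in Piwi-KD and 1936 in H1-KD, against 1938 RPKM in the control input of sample 1, and 1664 RPKM in HP1a-KD, against 1719 RPKM in that of sample 3. GYPSY6A had 8.06 RPKM in Piwi-KD (13 reads), against 17.8 RPKM in control (29 reads), and 5.02 RPKM in HP1a-KD (9 reads), against 11.5 RPKM in control (20 reads).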
